A study of Homo sapiens with 7 samples.

Results

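The comparison described here sets H4 cells after a long period of blue light against the same cells soon after the light came on, and it uses 4 of the 7 libraries of the series. The late pair holds the libraries lit for 600 and 720 min, and the early pair those lit for 60 and 120 min. H4 is an established human neuroglioma line, and all of these cells carried Cry2Olig-PKR (opto-PKR), a fusion of a light-clustering plant protein to the kinase PKR. Cells grew on fibronectin in glass-bottom plates under constant blue light from an optoPlate and were lysed at the end of the stated time. Each duration gave 1 RNA library by an adaptation of CEL-Seq2, which tags the 3' end of each transcript and counts unique molecular identifiers (UMIs). No duration was repeated, so the 2 libraries of a pair are neighbouring times and not replicate cultures, and the spread inside a pair holds both noise and change over time. Every p-value below is measured against such spread, estimated in part over all genes together, and not against replicate cultures. Dark cultures at the late times and lit cells without the fusion were not analysed here, so length of illumination and time in the plate cannot be told apart.

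PKR, encoded by EIF2AK2, is a kinase that double-stranded RNA activates in infected cells, and it phosphorylates the translation initiation factor eIF2. Phosphorylated eIF2 slows protein synthesis in general while favouring translation of a few messages such as ATF4, and this programme is called the integrated stress response (ISR). ATF4 then switches on genes for amino acid synthesis and transport, tRNA charging and stress signalling, and GADD34 (PPP1R15A) closes the loop by bringing a phosphatase to eIF2.

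The late libraries held 8875565 (600 min) and 7916972 (720 min) transcripts, and the early ones 7046698 (60 min) and 7567380 (120 min). Reads per UMI were 2.37 and 2.38 in the late libraries, against 2.11 and 2.08 in the early ones, and 38 and 37 genes had over 3800 UMIs late, against 20 and 20 early. At such counts the correction for UMI collisions is steep. These differences in sequencing moved with the comparison, and fits to UMI counts and to read counts gave 2155 and 2309 calls, against 2193 from the transcript counts. The mesenchymal genes VIM (vimentin; 742 and 682 CPM late, against 858 and 882 CPM early) and CD44 (603 and 495 CPM late, against 701 and 602 CPM early) were abundant in all 4 libraries. The glial markers GFAP, S100B and FABP7 had 0 counts in each of them, so the label neuroglioma has no support from those 3 genes here. Among the other glial and mesenchymal markers, SOX9 (47.1 to 96.1 CPM), SOX2 (15.9 to 54.3 CPM) and PDGFRA (13.0 to 68.7 CPM) were detected in all 4 libraries. NES had 2 to 11 counts.

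A total of 13510 genes reached 10 counts in 2 or more of the 4 libraries. Of these, 2193 (16.2%) differed between the pairs at an adjusted p under 0.05 (edgeR quasi-likelihood test with Benjamini-Hochberg adjustment), and 4216 had an unadjusted p under 0.05. The late pair was higher for 1101 genes (8.15%) and lower for 1092 (8.08%). Under total-count scaling the numbers were 837 higher and 1369 lower, and leaving out the 720 min library left 523 higher and 471 lower. Differences of 2-fold or more were found for 492 higher and 574 lower genes, and of 8-fold or more for 53 higher and 24 lower genes. The pairs did not overlap for any of the called genes. Among all tested genes they did not overlap in 59.6%, with the late pair above in 30.6% and below in 29.1%.

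The pairs lay farther from each other than the times within them. With a minimum of 50 counts in either library, 95 of 11178 genes (0.850%) differed 2-fold or more between 720 and 600 min. Between 120 and 60 min it was 199 of 11078 (1.80%), and between the pair means 860 of 11499 (7.48%). Levels are given below as CPM, counts divided by the TMM-adjusted library size and scaled in the usual way, with the 600 min value before the 720 min value and the 60 min value before the 120 min value. A fitted difference is late over early on the log2 scale ± its SE, with n = 2 libraries a side, and a positive value means higher late. Adjusted p-values are from the edgeR fit over all 13510 genes. "Higher", "rose", "lower" and "fell" are used of genes that passed it. The numbers of called members in every list below are to be read against the 8.15% higher and 8.08% lower of all tested genes.

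**Figure D1:**
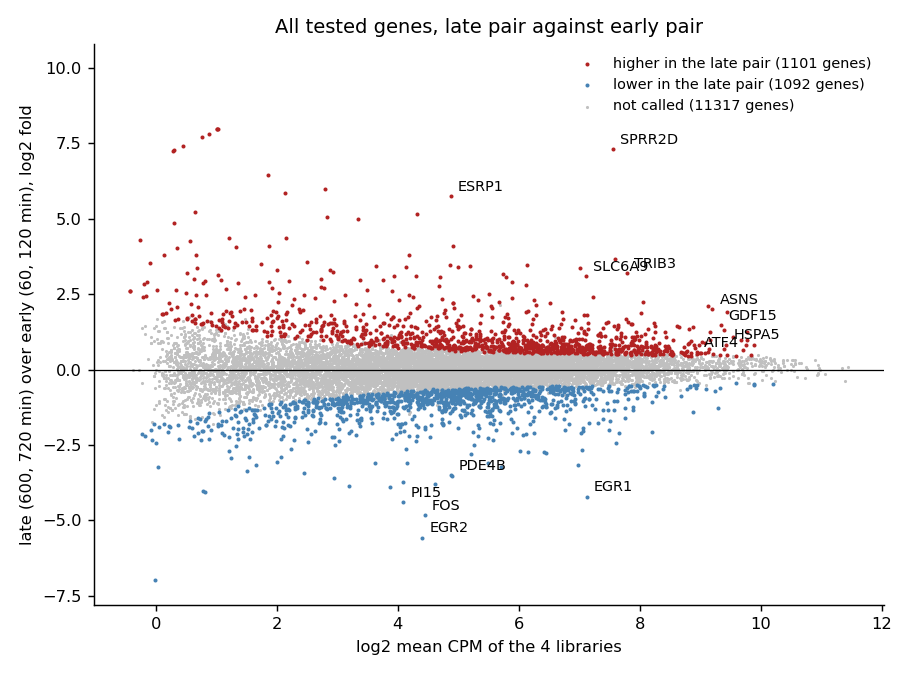
Each point is 1 of the 13510 tested genes, with its log2 mean CPM over the 4 libraries on the x axis and its fitted late over early log2 fold on the y axis. The 1101 genes higher late (red) and the 1092 genes lower late (blue) lie outside a grey band around 0, and the immediate early genes EGR1, EGR2 and FOS lie at the lower edge.

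The unlit library (0 min) and the 240 min library took no part in the test and place each change against the starting level. Of the 1101 genes higher late, 891 (80.9%) had an unlit level nearer to the early pair, and their median late over unlit difference was 0.85 in log2, with -0.12 for early over unlit. The 1092 genes lower late were a mixture. For 657 of them (60.2%) the unlit level was nearer to the early pair, which puts the late pair below the start. For 435 (39.8%) it was nearer to the late pair, which puts the early pair above the start. Over all tested genes 54.6% had an unlit level nearer to the early pair. At 240 min, 12 (1.09%) of the higher genes and 341 (31.2%) of the lower genes stood above all 4 libraries, against 23.2% of all tested genes.

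The 12 genes with the greatest late excess, among called genes with a mean of 50 counts or more, mostly had only a few CPM in the early pair. SPRR2D, a small proline-rich protein of the cornified envelope of skin, had 251 and 495 CPM in the late libraries, against 1.67 and 2.93 CPM in the early ones (log2 7.32 ± 0.43, adjusted p = 1.31e-05). ESRP1, an epithelial splicing regulator, had 58.0 and 57.3 CPM in the late libraries, against 0.418 and 1.66 CPM in the early ones (log2 5.74 ± 0.36, adjusted p = 8.91e-07). Its late libraries were nearly equal, whereas its early ones rested on 16 counts in all.

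The calcium-binding protein gene S100P had 31.1 and 46.4 CPM in the late libraries, against 0.836 and 1.27 CPM in the early ones (log2 5.17 ± 0.35, adjusted p = 9.72e-07). KLHDC7B, a kelch-domain gene, had 14.1 and 13.8 CPM late, against 0.279 and 0.510 CPM early (log2 5.07 ± 0.42, adjusted p = 4.1e-06), and 6 counts over the early pair. The dopamine receptor gene DRD5 had 17.8 and 21.6 CPM late, against 0.418 and 0.764 CPM early (log2 5.00 ± 0.38, adjusted p = 1.96e-06), with 9 counts over the early pair. In all 3 genes the gap between the pairs was far wider than that between the late libraries. KLHDC7B and DRD5 reached the count filter through the late pair alone. Their ratios had 95% exact intervals from 15.8 to 96.0 and from 17.0 to 72.1 (counting error only). SH3BGR, a gene of the thioredoxin-like SH3BGR family, had 44.9 and 68.9 CPM late, against 3.62 and 2.93 CPM early (log2 4.11 ± 0.29, adjusted p = 1.06e-06). The uncharacterised transcript LOC100505633 had 24.0 and 44.3 CPM late, against 1.67 and 3.18 CPM early (log2 3.79 ± 0.38, adjusted p = 6.49e-05). BEX2, a brain-expressed X-linked gene, stood at 286 and 432 CPM late, against 25.4 and 31.3 CPM early (log2 3.66 ± 0.23, adjusted p = 9.72e-07). BEX2 was well measured in every library, and its unlit level of 27.1 CPM lay between the early ones.

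CSTA, a protease inhibitor also of cornified skin, had 40.2 and 67.2 CPM late, against 3.76 and 5.86 CPM early (log2 3.47 ± 0.31, adjusted p = 1.86e-05). The GTPase gene RAB39B had 138 and 119 CPM late, against 8.08 and 15.2 CPM early (log2 3.46 ± 0.26, adjusted p = 4.56e-06). TNFRSF9, the T-cell co-stimulator 4-1BB, had 22.7 and 23.0 CPM late, against 1.39 and 2.80 CPM early (log2 3.42 ± 0.32, adjusted p = 1.31e-05). In these 3 genes too the lowest late library was several-fold above the highest early one. The fitted fold rested in part on 1 library, changing over 1.5 times, for ESRP1 (log2 5.08 leaving out 60 min, 7.05 leaving out 120 min) and TNFRSF9 (log2 4.02 leaving out 120 min). The ESRP1 value leaving out 120 min rested on 3 early counts. In bulk RNA a change in the share of cells that express a gene and a change in RNA per cell cannot be told apart.

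The 12 genes with the greatest late deficit divided into those whose early levels were above the unlit one and those below it. EGR2, FOS and EGR1, immediate early factors, are described further on. C10orf10 (DEPP1), a FOXO-regulated gene, had 3.77 and 2.78 CPM in the late libraries, against 28.0 and 63.2 CPM in the early ones (log2 -3.79 ± 0.40, adjusted p = 0.000189), and 17.5 CPM unlit. The bradykinin receptor gene BDKRB2 had 1.37 and 0.926 CPM late, against 6.97 and 21.4 CPM early (log2 -3.60 ± 0.58, adjusted p = 0.00305), and 5.73 CPM unlit. PDE4B, a cAMP phosphodiesterase, had 6.63 and 2.78 CPM late, against 40.5 and 68.8 CPM early (log2 -3.51 ± 0.38, adjusted p = 0.000202), and 17.2 CPM unlit. For these 3 genes both early libraries were above the unlit one and both late libraries below it. The same order held in 3 more. RGS1, which dampens G protein signals, had 2.86 and 0.661 CPM late, against 28.8 and 26.1 CPM early (log2 -3.91 ± 0.41, adjusted p = 9.3e-05), and 15.1 CPM unlit. The forebrain factor gene FEZF1 had 6.17 and 3.31 CPM late, against 51.8 and 55.8 CPM early (log2 -3.48 ± 0.28, adjusted p = 2.69e-06), and 28.3 CPM unlit. PCDH18, a protocadherin, had 11.8 and 8.20 CPM late, against 99.6 and 89.0 CPM early (log2 -3.23 ± 0.23, adjusted p = 1.03e-06), and 78.2 CPM unlit.

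The other leading genes were already under the unlit level in the early pair. PI15, a secreted protease inhibitor, had 2.06 and 0.926 CPM in the late libraries, against 39.7 and 25.5 CPM in the early ones (log2 -4.40 ± 0.37, adjusted p = 6.99e-06), and 48.5 CPM unlit. METTL7A, a methyltransferase-like gene of lipid droplets, had 2.97 and 1.72 CPM late, against 37.5 and 25.9 CPM early (log2 -3.73 ± 0.32, adjusted p = 5.65e-06), and 47.8 CPM unlit. TMEM100, a membrane protein gene of BMP signalling, had 1.26 and 1.06 CPM late, against 18.8 and 15.3 CPM early (log2 -3.85 ± 0.34, adjusted p = 6.81e-06), and 26.5 CPM unlit. In all 3 the order was unlit, early, late from high to low. Leaving out 1 library moved the fitted fold by more than 1.5 times for RGS1 (log2 -5.33 leaving out 600 min, -3.27 leaving out 720 min), C10orf10 (log2 -3.08 leaving out 120 min), BDKRB2 (log2 -4.22 leaving out 60 min, -2.57 leaving out 120 min), PDE4B (log2 -4.29 leaving out 600 min) and PI15 (log2 -5.10 leaving out 600 min). The call was lost for BDKRB2 with the 720 min library left out (log2 -4.22 to -2.57, adjusted p 1.04e-22 to 0.0792 over all alternatives).

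**Figure D2:**
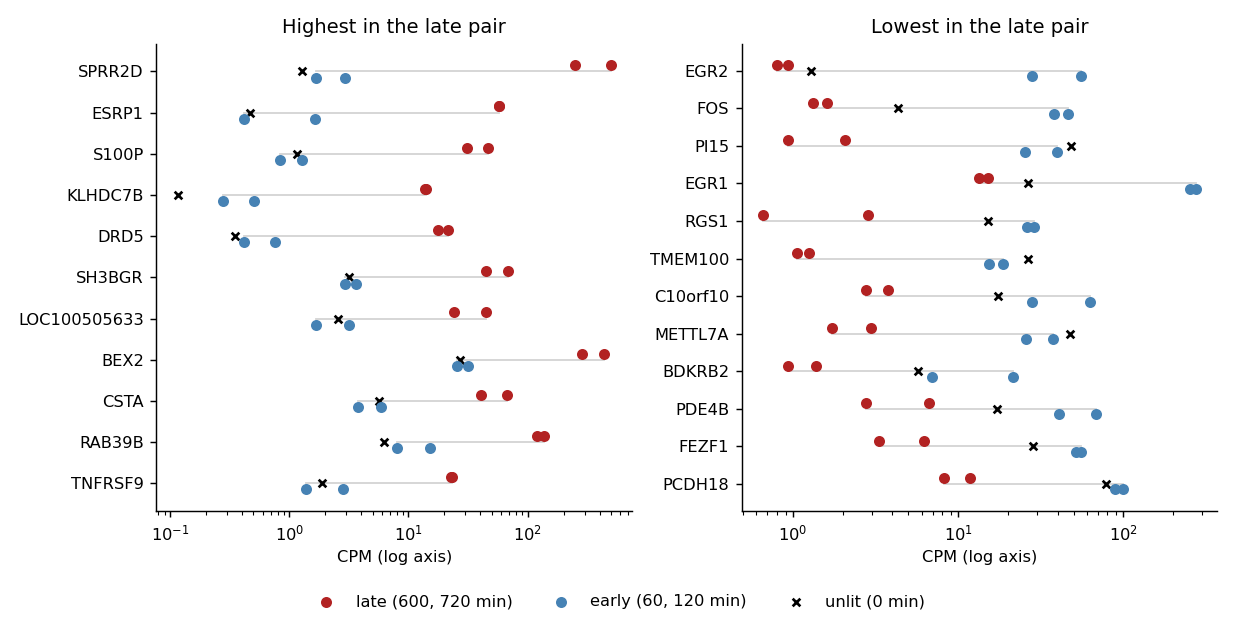
CPM on a log axis of the described genes with the greatest late excess (left) and the 12 with the greatest late deficit (right), with 1 point per library: red for 600 and 720 min, blue for 60 and 120 min, and a cross for the unlit library. In all genes shown the red points lie apart from the blue ones, and for PI15, TMEM100 and METTL7A the cross lies beyond the early libraries.

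The ISR regulators and the hormones that stressed cells secrete formed the list closest to the kinase. Of 20 tested members 14 rose and 0 fell, with a median difference of 0.97, against 0.01 over all tested genes. FGF21 reached the count filter through the late pair alone, and without it 13 of 19 rose, with a median of 0.91. ATF4, the factor that PKR signalling induces, had 555 and 620.3 CPM in the late libraries, against 343 and 448 CPM in the early ones (log2 0.57 ± 0.16, adjusted p = 0.0292). DDIT3, which encodes the transcription factor CHOP, had 95.6 and 94.5 CPM in the late libraries, against 39.0 and 61.8 CPM in the early ones (log2 0.91 ± 0.21, adjusted p = 0.0111). PPP1R15A, the phosphatase subunit GADD34, had 294 and 339.8 CPM in the late libraries, against 151 and 236 CPM in the early ones (log2 0.71 ± 0.20, adjusted p = 0.0314). These 3 genes were less than 2-fold apart between the pairs, and at 240 min DDIT3 was already at 94.9 CPM, level with its late values.

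TRIB3, a pseudokinase and ATF4 target that feeds back on ATF4, had 410.1 and 387 CPM in the late libraries, against 35.1 and 51.5 CPM in the early ones (log2 3.20 ± 0.20, adjusted p = 6.8e-07). SESN2, a sestrin that restrains mTORC1, had 169 and 155 CPM in the late libraries, against 37.8 and 64.3 CPM in the early ones (log2 1.66 ± 0.23, adjusted p = 0.00045). NUPR1, a stress-induced chromatin protein, had 392 and 482 CPM in the late libraries, against 75.0 and 111 CPM in the early ones (log2 2.23 ± 0.20, adjusted p = 1.44e-05). In these targets the late libraries were 2-fold or more above the early ones, and the unlit level of TRIB3, 44.3 CPM, fell between its early ones. VLDLR, a lipoprotein receptor, had 30.9 and 23.4 CPM late, against 4.18 and 6.62 CPM early (log2 2.32 ± 0.28, adjusted p = 0.00011). FGF21, a hormone of starvation, had 117 counts over the late pair and 1 over the early pair, a ratio of 108 with a 95% exact interval from 19.0 to 4294 (counting error only).

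Not every core gene passed the test. ATF3, another stress transcription factor, had 188 and 113 CPM in the late libraries, against 125 and 185 CPM in the early ones (log2 -0.04 ± 0.25, adjusted p = 0.933). Its pairs overlapped, and all 4 libraries stood below the 329 CPM of 240 min. CHAC1, which degrades glutathione, had 308 and 432 CPM late, against 175 and 274 CPM early (log2 0.72 ± 0.23, adjusted p = 0.0503). DDIT4, an mTORC1 inhibitor, had 426 and 470.0 CPM late, against 333 and 324 CPM early (log2 0.45 ± 0.15, adjusted p = 0.0541). In CHAC1 and DDIT4 both late libraries were above both early ones, as in 30.6% of all tested genes. Chosen after their values were seen, the transcription factor gene ATF5 had 345 and 471 CPM late, against 141 and 83.4 CPM early (log2 1.86 ± 0.24, adjusted p = 0.000586) and the hormone gene GDF15 had 888 and 1030.5 CPM late, against 409 and 282 CPM early (log2 1.47 ± 0.18, adjusted p = 0.000179). Their fitted differences ran from log2 1.48 to 2.26 and from 0.76 to 2.04 over the 15 alternatives. Among the 15 alternatives the call ended for ATF4 under total-count scaling, on UMI counts or with the 60 or 720 min library left out (log2 0.33 to 0.79, adjusted p 0.00597 to 0.291 over all alternatives), DDIT3 with the 60 min library left out (log2 0.59 to 1.28, adjusted p 5.25e-05 to 0.0894) and PPP1R15A under total-count scaling or with the 60 or 720 min library left out (log2 0.39 to 1.07, adjusted p 0.00017 to 0.25). CHAC1 passed the threshold with no count filter, with DESeq2, with limma-voom, after thinning, without robust estimation or with the 120 or 600 min library left out (log2 0.40 to 1.08, adjusted p 4.65e-05 to 0.323 over all alternatives). DDIT4 passed the threshold with no count filter, on read counts or with the 600 min library left out (log2 0.28 to 0.57, adjusted p 0.0427 to 0.262 over all alternatives).

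**Figure D3:**
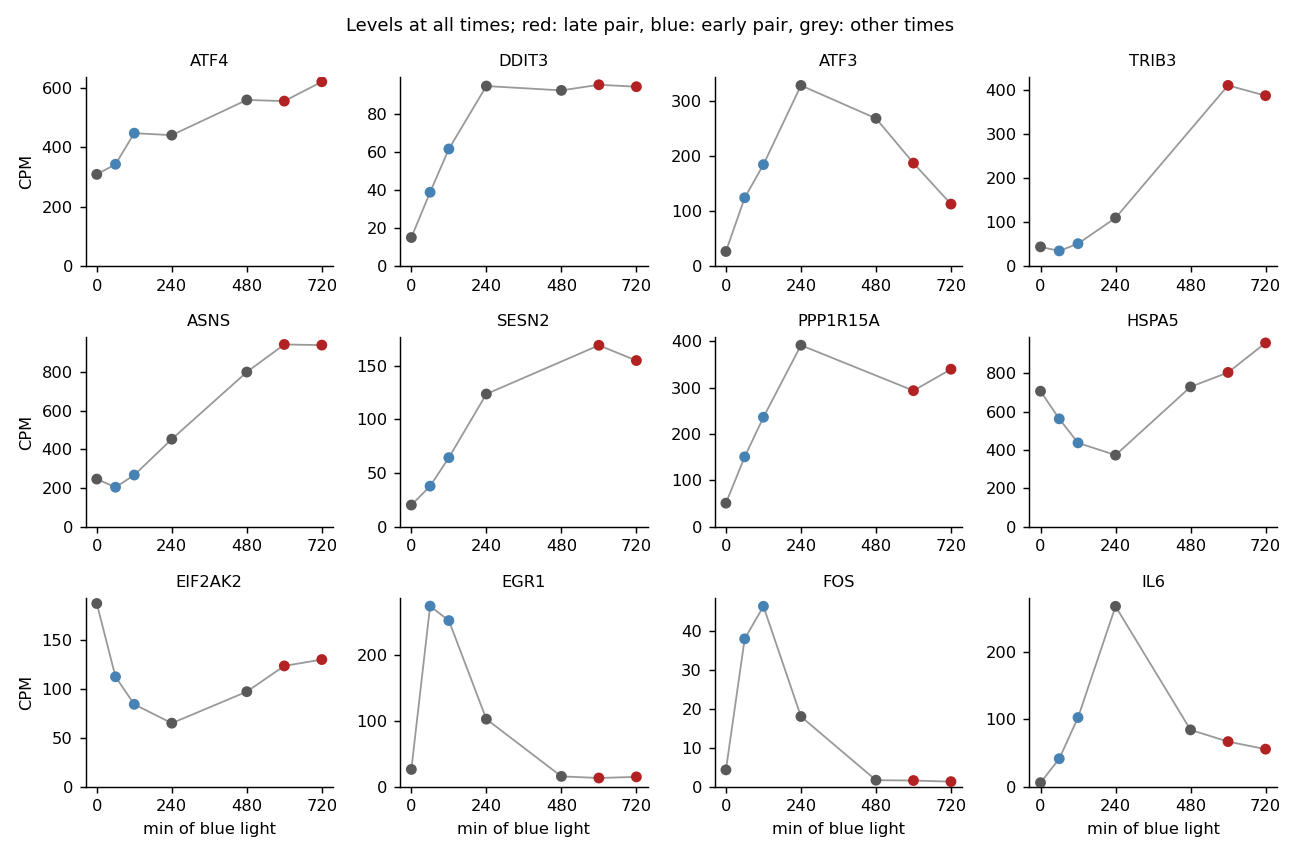
CPM of 12 genes against minutes of blue light, from 0 to 720 min, with the early pair in blue, the late pair in red and the other times in grey (no value at 480 min for TRIB3, SESN2 and PPP1R15A, whose rows that table does not reach). TRIB3 and ASNS are highest in the late pair, DDIT3 is level from 240 min, EGR1 and FOS are highest in the early pair, and HSPA5 and EIF2AK2 are lowest at 240 min.

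The kinase genes and the eIF2 machinery itself held few calls. Of 12 eIF2 kinase, eIF2 and eIF2B genes 1 rose and 0 fell, with a median of 0.07 (-0.01 under total-count scaling). EIF2AK2, the gene of PKR, had 123 and 129.7 CPM in the late libraries, against 112 and 84.1 CPM in the early ones (log2 0.37 ± 0.18, adjusted p = 0.191), with 187 CPM unlit, and these counts may include the introduced fusion. Both of its late libraries were above both early ones, as in 30.6% of all tested genes, and below the unlit one. EIF2S2, the beta subunit of eIF2, had 566 and 497 CPM in the late libraries, against 381 and 392 CPM in the early ones (log2 0.46 ± 0.15, adjusted p = 0.0495). The threshold was missed for EIF2S2 with RLE size factors, under total-count scaling, with DESeq2, with limma-voom, on UMI counts, without robust estimation, with all 6 complete libraries fitted or with the 60, 120, 600 or 720 min library left out (log2 0.25 to 0.70, adjusted p 0.0192 to 0.222 over all alternatives).

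Genes that supply amino acids rose in 18 of 21 tested members and fell in 0, with a median of 1.26. SLC6A9, a glycine transporter, had 248 and 246 CPM in the late libraries, against 22.8 and 35.0 CPM in the early ones (log2 3.09 ± 0.21, adjusted p = 9.72e-07). ALDH1L2, a mitochondrial folate enzyme, had 46.0 and 43.8 CPM in the late libraries, against 4.88 and 8.03 CPM in the early ones (log2 2.79 ± 0.26, adjusted p = 1.26e-05). ASNS, asparagine synthetase and a textbook ATF4 target, had 943 and 939 CPM in the late libraries, against 204 and 267 CPM in the early ones (log2 2.00 ± 0.17, adjusted p = 4.1e-06). The late libraries of each of these 3 genes lay close together, and the unlit level of ASNS, 246 CPM, fell between its early ones. The size of the ASNS difference depended on the setting, from log2 1.17 to 2.66 over the 15 alternatives. PYCR1, of proline synthesis, had 247 and 286 CPM in the late libraries, against 96.0 and 81.1 CPM in the early ones (log2 1.59 ± 0.17, adjusted p = 4.06e-05), with 121 CPM unlit. The 3 members without a call, named after their values were seen, were ALDH18A1, of proline synthesis, at log2 -0.60 ± 0.20, adjusted p = 0.0519, the transporter SLC38A2, at log2 0.12 ± 0.17, adjusted p = 0.681, and the transporter SLC43A1, at log2 0.81 ± 0.27, adjusted p = 0.0514. ALDH18A1 passed the threshold with RLE size factors, under total-count scaling, with no count filter, with the stricter count filter, on read counts or with all 6 complete libraries fitted (log2 -0.69 to -0.57, adjusted p 0.0309 to 0.229 over all alternatives). SLC43A1 passed the threshold with no count filter, with the stricter count filter or on read counts (log2 0.73 to 0.86, adjusted p 0.0454 to 0.229 over all alternatives).

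The promoters of ASNS and FGF21 are shown because each holds a match to the C/EBP-ATF response element (CARE), at which ATF4 is known to bind. The sequences are the 250 bases before a RefSeq gene start in GRCh38.p14, from chr7:97872409-97872658 (minus strand) and chr19:48755274-48755523 (plus strand), written 5′ to 3′ along the gene with the match in capitals. The match in ASNS lies 68 to 61 bases before that start, and the one in FGF21 lies 54 to 47 bases before it and is a match on the opposite strand.
ASNS: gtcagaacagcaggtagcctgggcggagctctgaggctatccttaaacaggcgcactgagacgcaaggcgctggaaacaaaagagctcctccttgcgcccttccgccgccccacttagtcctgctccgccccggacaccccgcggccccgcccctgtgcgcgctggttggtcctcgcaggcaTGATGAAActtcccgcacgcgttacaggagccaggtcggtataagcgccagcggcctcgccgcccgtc
FGF21: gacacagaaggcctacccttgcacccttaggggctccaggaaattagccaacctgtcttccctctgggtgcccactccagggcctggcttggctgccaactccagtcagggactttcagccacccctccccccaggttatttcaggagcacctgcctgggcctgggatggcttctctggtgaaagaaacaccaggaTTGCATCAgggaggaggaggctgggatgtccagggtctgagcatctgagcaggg

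The motif searched was TGATGNAA on both strands, and for a gene with several starts a match before any of them counted. It was found in 1056 of 27195 genes with a promoter in that table (3.88%) and in 265 of 10499 tested genes (2.52%). Among genes higher late it was found in 39 of 819 (4.76%), and among genes lower late in 26 of 875 (2.97%). Of the ISR regulators 6 of 18 had a match: CEBPG, FGF21 and JDP2, which rose, and ATF3, CHAC1 and PPP1R15B, which had no call. Of the amino acid genes 2 of 15 had a match, ASNS and SLC1A5, and both rose. Of the cytosolic synthetases 2 of 13 had a match, AARS, which rose, and IARS, which had no call. In all, 8 motifs were searched, and those shown were chosen after the matches were seen. A match describes these letters and is not evidence of binding.

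Aminoacyl-tRNA synthetases, which load amino acids onto tRNAs, were divided by compartment. Of 20 cytosolic enzymes 10 rose and 0 fell, with a median of 0.53, and of 17 mitochondrial enzymes 0 rose and 1 fell, with a median of -0.13. SARS, for serine, had 422 and 477 CPM in the late libraries, against 148 and 160.5 CPM in the early ones (log2 1.54 ± 0.16, adjusted p = 2.56e-05). WARS, for tryptophan, had 588 and 572 CPM in the late libraries, against 214 and 223 CPM in the early ones (log2 1.41 ± 0.15, adjusted p = 3.22e-05). AARS, for alanine, had 309 and 258 CPM late, against 128 and 133 CPM early (log2 1.12 ± 0.16, adjusted p = 0.000485). In all 3 genes the late levels were also above the unlit ones, which were 205, 271 and 140.4 CPM. MARS, for methionine, had 309.7 and 308 CPM late, against 145 and 172 CPM early (log2 0.96 ± 0.16, adjusted p = 0.00121). Its mitochondrial counterpart MARS2 had 23.9 and 26.1 CPM late, against 39.4 and 39.2 CPM early (log2 -0.66 ± 0.20, adjusted p = 0.0389). An alternative ended the call for MARS2 with DESeq2 or with the 60, 120, 600 or 720 min library left out (log2 -0.75 to -0.59, adjusted p 0.019 to 0.14 over all alternatives).

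**Figure D4:**
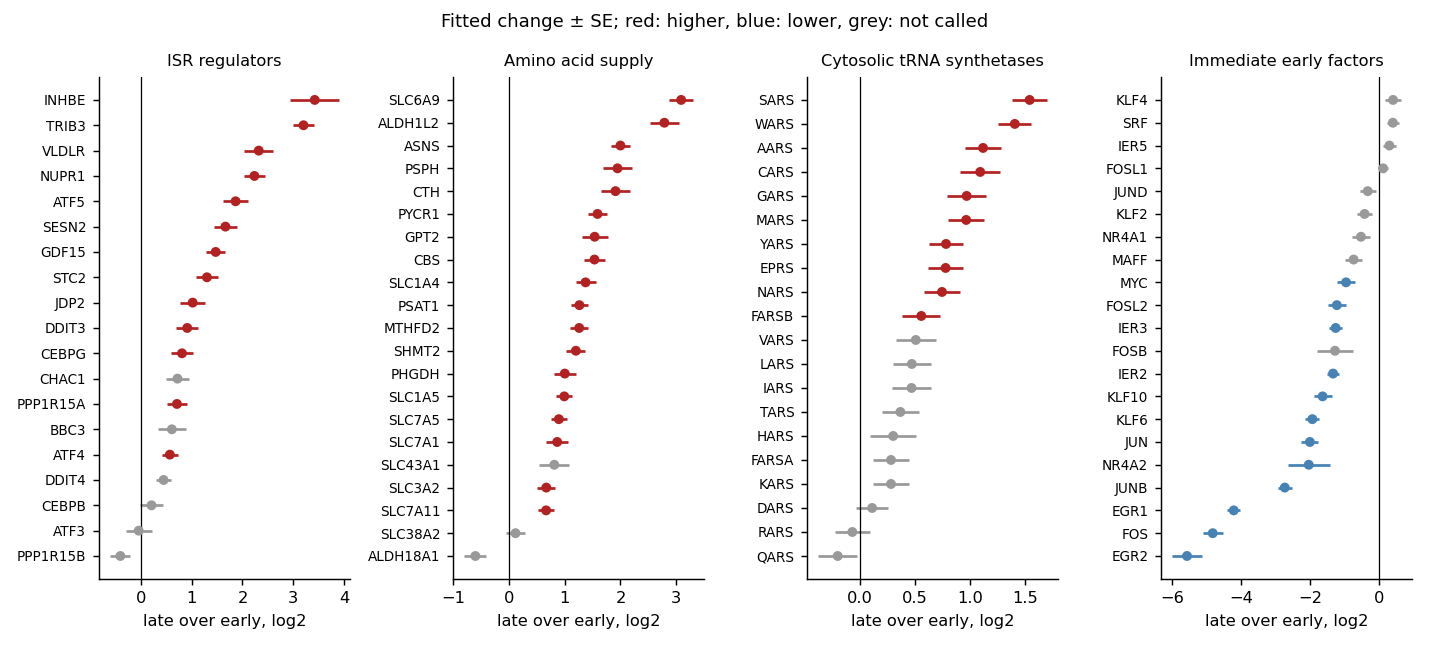
Fitted late over early log2 difference ± SE (n = 2 libraries a side) of the members of 4 gene lists, in red where higher, blue where lower and grey where not called. FGF21 and EGR3 are left out because of their low counts. Most ISR, amino acid and synthetase members lie right of 0, and most immediate early factors lie left of it.

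Translation factors changed as single genes: 4 of 22 rose and 1 fell, with a median of 0.19. EIF4EBP1, the repressor of cap-dependent initiation 4E-BP1, had 140.4 and 193 CPM in the late libraries, against 39.8 and 47.6 CPM in the early ones (log2 1.93 ± 0.20, adjusted p = 3.13e-05). The start codon factor gene EIF1 had 1087 and 1325 CPM late, against 689 and 668 CPM early (log2 0.83 ± 0.15, adjusted p = 0.00203). Its partner EIF5 had 381 and 360.3 CPM late, against 231 and 266 CPM early (log2 0.57 ± 0.15, adjusted p = 0.0222). In these 3 genes the pairs stood well apart. EIF4A2, an initiation helicase, was the member that fell, with 266 and 210.1 CPM late, against 421 and 466 CPM early (log2 -0.90 ± 0.16, adjusted p = 0.00231), and its late levels were nearer than its early ones to the unlit 205 CPM. No call was made for EIF1 on UMI counts (log2 0.25 to 1.22, adjusted p 1.63e-06 to 0.163 over all alternatives) and EIF5 with the 60 min library left out (log2 0.40 to 0.71, adjusted p 0.00793 to 0.176).

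The immediate early transcription factors, which growth and stress signals switch on within minutes, fell in 13 of 22 tested members and rose in 0, with a median of -1.26. EGR2, EGR3 and FOSB reached the count filter through the early pair alone, and without them 11 of 19 fell, with a median of -1.22. EGR4 and NR4A3 had too few counts to be tested. EGR2 had 0.800 and 0.926 CPM in the late libraries, against 27.9 and 55.3 CPM in the early ones (log2 -5.57 ± 0.43, adjusted p = 7.07e-06), and 14 counts over the late pair against 634 over the early pair. FOS, an AP-1 subunit, had 1.60 and 1.32 CPM in the late libraries, against 37.9 and 46.2 CPM in the early ones (log2 -4.83 ± 0.29, adjusted p = 6.24e-07). EGR1, a zinc finger factor, had 13.4 and 15.1 CPM in the late libraries, against 275 and 253 CPM in the early ones (log2 -4.21 ± 0.20, adjusted p = 4.53e-08). For all 3 the late libraries stood below the unlit levels of 1.29, 4.33 and 26.4 CPM, and the early ones several-fold above them. JUNB, another AP-1 subunit, had 20.9 and 23.8 CPM in the late libraries, against 131 and 165 CPM in the early ones (log2 -2.73 ± 0.20, adjusted p = 1.37e-06), and its late levels were also under the unlit 28.8 CPM. MYC, the growth regulator, had 7.54 and 6.88 CPM late, against 13.4 and 14.5 CPM early (log2 -0.95 ± 0.26, adjusted p = 0.0227), and its late levels were above the unlit 2.92 CPM. Among those without a call, FOSL1, an AP-1 gene named after its value was seen, had log2 0.13 ± 0.15, adjusted p = 0.603. Support for the call failed for MYC with DESeq2 or with the 120, 600 or 720 min library left out (log2 -1.04 to -0.89, adjusted p 0.0068 to 0.139 over all alternatives).

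The promoters of EGR1 and EGR2, which lead the falling genes, are shown for their CArG boxes, the sites of serum response factor. They are the 250 bases before the RefSeq starts in GRCh38.p14, from chr5:138465229-138465478 (plus strand) and chr10:62816367-62816616 (minus strand). Capitals mark the boxes, which lie 105 to 96 and 83 to 74 bases before the start of EGR1 and 71 to 62 bases before that of EGR2.
EGR1: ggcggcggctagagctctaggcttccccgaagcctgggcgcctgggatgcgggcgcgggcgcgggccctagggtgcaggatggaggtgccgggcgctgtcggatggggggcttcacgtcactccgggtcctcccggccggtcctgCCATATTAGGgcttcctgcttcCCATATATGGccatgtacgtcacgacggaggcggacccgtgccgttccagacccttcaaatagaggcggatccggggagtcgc
EGR2: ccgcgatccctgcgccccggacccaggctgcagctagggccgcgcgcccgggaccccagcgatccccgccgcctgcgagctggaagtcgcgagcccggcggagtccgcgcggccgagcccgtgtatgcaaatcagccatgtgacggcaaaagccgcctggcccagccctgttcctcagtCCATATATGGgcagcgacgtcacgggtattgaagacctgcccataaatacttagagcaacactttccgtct

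The CArG box was found in 393 of 27195 genes with a promoter (1.45%) and in 162 of 10499 tested genes (1.54%). Among genes lower late it was found in 19 of 875 (2.17%), among genes higher late in 13 of 819 (1.59%), and among the immediate early factors in 3 of 18, namely EGR1, EGR2 and SRF. SRF had no call.

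Genes that restrain MAP kinase signalling fell in 7 of 16 cases and rose in 1, with a median of -0.74. DUSP2, a phosphatase of ERK, had 8.34 and 10.3 CPM in the late libraries, against 80.0 and 81.1 CPM in the early ones (log2 -3.11 ± 0.22, adjusted p = 9.72e-07). SPRY4, a Sprouty inhibitor, had 70.1 and 74.4 CPM in the late libraries, against 212 and 282 CPM in the early ones (log2 -1.77 ± 0.18, adjusted p = 2.92e-05). The related phosphatase gene DUSP1 had 29.8 and 17.2 CPM late, against 75.1 and 85.3 CPM early (log2 -1.76 ± 0.24, adjusted p = 0.000392). In these 3 genes both early libraries were above the unlit levels of 18.6, 70.6 and 14.2 CPM. SPRY1, another Sprouty, had 1.37 and 1.85 CPM late, against 9.19 and 7.01 CPM early (log2 -2.33 ± 0.36, adjusted p = 0.000767). The member that rose was DUSP4, named after its value was seen, with 54.9 and 80.7 CPM late, against 31.3 and 28.8 CPM early (log2 1.17 ± 0.22, adjusted p = 0.00261).

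Secreted signals went both ways. Of 13 tested cytokine, chemokine and EGF-family genes 5 rose and 4 fell, with a median of 0.38 (1.15 with the 120 min library left out), and 6 members had too few counts. The EGF-family gene AREG reached the filter through the late pair alone, and without it 4 rose and 4 fell of 12. CCL2, which attracts monocytes, had 27.7 and 22.9 CPM in the late libraries, against 158 and 295 CPM in the early ones (log2 -3.16 ± 0.28, adjusted p = 4.12e-05). LIF, a cytokine of the IL6 family, had 28.2 and 16.7 CPM late, against 86.9 and 106 CPM early (log2 -2.10 ± 0.24, adjusted p = 0.000112). CXCL3, a neutrophil chemokine, had 43.1 and 45.6 CPM in the late libraries, against 7.66 and 9.81 CPM in the early ones (log2 2.34 ± 0.23, adjusted p = 1.86e-05). CCL2 ended below its unlit level of 89.3 CPM, whereas CXCL3 ended above its own, 3.27 CPM. IL1A, an alarm cytokine, had 23.4 and 15.5 CPM late, against 1.53 and 4.59 CPM early (log2 2.65 ± 0.40, adjusted p = 0.00121). IL6 itself had 67.0 and 55.8 CPM late, against 41.7 and 103 CPM early (log2 -0.23 ± 0.37, adjusted p = 0.715). Its pairs overlapped, and both were below the 268 CPM of 240 min. The fitted fold rested in part on 1 library, changing over 1.5 times, for IL1A (log2 2.05 leaving out 60 min, 3.65 leaving out 120 min) and IL6 (log2 0.56 leaving out 120 min). IL6 passed the threshold with the 60 min library left out (log2 -0.77 to 0.56, adjusted p 0.0128 to 0.96 over all alternatives).

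Among 14 tested NF-kB subunit and feedback genes 4 rose and 2 fell, with a median of 0.24. The inhibitor gene NFKBIA had 23.8 and 31.7 CPM late, against 85.4 and 97.8 CPM early (log2 -1.73 ± 0.20, adjusted p = 8.86e-05). TNFAIP3, a deubiquitinase that limits the pathway, had 10.5 and 5.55 CPM late, against 24.9 and 51.5 CPM early (log2 -2.24 ± 0.39, adjusted p = 0.00472). NFKBIB, another inhibitor, had 153 and 169.5 CPM late, against 82.5 and 87.8 CPM early (log2 0.92 ± 0.17, adjusted p = 0.00235). The inhibitors thus went in both directions. The subunit gene NFKB2 had 62.6 and 43.6 CPM late, against 29.3 and 32.2 CPM early (log2 0.79 ± 0.22, adjusted p = 0.024). Leaving out 1 library moved the fitted fold by more than 1.5 times for TNFAIP3 (log2 -1.62 leaving out 120 min). The call was lost for NFKB2 with the 60 or 600 min library left out (log2 0.51 to 1.02, adjusted p 0.00384 to 0.184 over all alternatives).

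Of 24 interferon-stimulated genes 3 rose (12.5%) and 3 fell (12.5%), with a median of -0.04 (0.10 with the 120 min library left out). The shares of all tested genes were 8.15% higher and 8.08% lower, so these counts stood near them. IFIT1, which binds viral RNA, had 41.0 and 38.1 CPM late, against 88.3 and 95.7 CPM early (log2 -1.22 ± 0.18, adjusted p = 0.00053). IRF1, a transcription factor, had 89.5 and 85.7 CPM late, against 174 and 262 CPM early (log2 -1.32 ± 0.20, adjusted p = 0.000637). IFI35, an interferon-induced leucine zipper protein, had 40.8 and 50.4 CPM late, against 21.2 and 20.9 CPM early (log2 1.11 ± 0.21, adjusted p = 0.00283). The unlit level of IRF1, 90.0 CPM, was close to its late ones, whereas that of IFIT1, 116 CPM, was above its early ones. The list thus had no common direction. ISG20, an exonuclease gene, had 5.72 and 7.14 CPM late, against 2.23 and 1.91 CPM early (log2 1.63 ± 0.35, adjusted p = 0.00711). Among the 15 alternatives the call ended for ISG20 with the 720 min library left out (log2 1.44 to 1.79, adjusted p 0.000447 to 0.0573 over all alternatives).

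Read-outs of BMP and TGF-beta signalling, the ID proteins and SMAD feedback genes, fell in 6 of 10 cases and rose in 0, with a median of -1.04. ID2, an inhibitor of basic helix-loop-helix factors, had 43.0 and 43.8 CPM in the late libraries, against 146 and 203 CPM in the early ones (log2 -2.01 ± 0.20, adjusted p = 1.86e-05). Its relative ID1 had 343 and 400.3 CPM late, against 975 and 802 CPM early (log2 -1.26 ± 0.16, adjusted p = 0.000152). ID3, of the same family, had 126 and 145 CPM late, against 268 and 409 CPM early (log2 -1.32 ± 0.20, adjusted p = 0.000754). In all 3 genes the early libraries were above the unlit ones of 64.5, 428 and 164 CPM and the late libraries below them. The receptor inhibitor gene SMAD7 had 28.9 and 22.0 CPM late, against 55.6 and 75.4 CPM early (log2 -1.36 ± 0.22, adjusted p = 0.000997). Its unlit level, 16.4 CPM, was below all 4 libraries.

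Of 10 YAP targets 3 fell and 1 rose, with a median of -0.75. CYR61, a matricellular protein, had 67.0 and 55.7 CPM late, against 166 and 151 CPM early (log2 -1.36 ± 0.18, adjusted p = 0.000199). AMOTL2, an angiomotin that holds YAP back, had 329 and 245 CPM late, against 444 and 616 CPM early (log2 -0.88 ± 0.19, adjusted p = 0.00819). Tissue factor (F3) had 38.2 and 38.7 CPM late, against 65.1 and 83.9 CPM early (log2 -0.95 ± 0.19, adjusted p = 0.00473). In these 3 genes all 4 libraries stood above the unlit levels of 39.2, 218 and 37.7 CPM. The receptor kinase gene AXL went the other way, with 505 and 497 CPM late, against 360.1 and 323 CPM early (log2 0.55 ± 0.15, adjusted p = 0.0218). The threshold was missed for AXL on UMI counts or with the 60, 120 or 720 min library left out (log2 0.33 to 0.76, adjusted p 0.00876 to 0.168 over all alternatives).

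Regulators of mRNA decay fell in 3 of 16 cases and rose in 2, with a median of 0.12. The AU-rich element binding protein gene ZFP36 had 20.1 and 21.4 CPM late, against 54.2 and 88.1 CPM early (log2 -1.78 ± 0.24, adjusted p = 0.000287). Its relative ZFP36L1 had 296 and 215 CPM late, against 618 and 746 CPM early (log2 -1.42 ± 0.18, adjusted p = 0.000169). ZFP36L2, of the same family, had 57.0 and 47.3 CPM late, against 97.1 and 147 CPM early (log2 -1.22 ± 0.21, adjusted p = 0.00187). These 3 were the members that fell, each more than 2-fold. Their unlit levels of 21.0, 281 and 53.4 CPM lay between their late ones, and both early libraries stood above them. BTG1, which recruits deadenylases, had 50.3 and 57.0 CPM late, against 26.6 and 26.5 CPM early (log2 1.01 ± 0.20, adjusted p = 0.00343). Of 16 clock genes, with a median of -0.10, 0 rose and 1 fell: BHLHE40, a repressor, had 40.1 and 32.0 CPM in the late libraries, against 182 and 275 CPM in the early ones (log2 -2.66 ± 0.22, adjusted p = 7.93e-06). The unlit level of BHLHE40, 47.8 CPM, was above both late libraries and below both early ones.

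Among 11 tested hosts of small nucleolar RNAs 2 rose and 0 fell, with a median of 0.04. GAS5, whose spliced RNA is decayed during translation, had 269 and 321 CPM late, against 131 and 207 CPM early (log2 0.80 ± 0.21, adjusted p = 0.0218). SNHG5, another such host, had 418 and 471 CPM late, against 261 and 329 CPM early (log2 0.59 ± 0.16, adjusted p = 0.0246). An alternative ended the call for GAS5 with the 60 or 720 min library left out (log2 0.48 to 1.17, adjusted p 3.31e-05 to 0.143 over all alternatives) and SNHG5 on UMI counts or with the 60 or 720 min library left out (log2 0.39 to 0.76, adjusted p 0.0053 to 0.227).

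The chaperones of the endoplasmic reticulum (ER) did not move as a block. Of 18 tested members 3 rose and 0 fell, with a median of 0.02 (-0.11 with the 120 min library left out). HSPA5, the lumenal chaperone BiP, had 804 and 958 CPM in the late libraries, against 562 and 437 CPM in the early ones (log2 0.82 ± 0.16, adjusted p = 0.00434). Its early levels were below the unlit 707 CPM and its late levels above it. DNAJB9, a co-chaperone of BiP, had 103 and 105 CPM in the late libraries, against 43.9 and 40.1 CPM in the early ones (log2 1.31 ± 0.18, adjusted p = 0.000277). HYOU1, an exchange factor for BiP, had 113 and 122 CPM late, against 81.4 and 79.9 CPM early (log2 0.54 ± 0.17, adjusted p = 0.0426). No call was made for HSPA5 on UMI counts (log2 0.36 to 1.24, adjusted p 6.98e-06 to 0.0657 over all alternatives) and HYOU1 under total-count scaling or with the 60, 120 or 720 min library left out (log2 0.46 to 0.61, adjusted p 0.0383 to 0.21).

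Of 15 genes of XBP1 and ER-associated degradation 5 rose and 0 fell, with a median of 0.25. XBP1, a transcription factor of ER stress, had 120.0 and 120.3 CPM in the late libraries, against 42.8 and 54.3 CPM in the early ones (log2 1.31 ± 0.19, adjusted p = 0.000372). HERPUD1, a membrane protein that organises the degradation complex, had 297 and 303 CPM late, against 154 and 173 CPM early (log2 0.88 ± 0.16, adjusted p = 0.00203). SEL1L, the partner of the ligase HRD1, had 106 and 105 CPM late, against 61.4 and 59.2 CPM early (log2 0.81 ± 0.17, adjusted p = 0.00623). The late libraries of each were nearly equal. DERL1, of the retrotranslocation machinery, had 73.0 and 72.6 CPM late, against 52.1 and 39.7 CPM early (log2 0.67 ± 0.19, adjusted p = 0.0309). Support for the call failed for DERL1 under total-count scaling or with the 120 or 720 min library left out (log2 0.48 to 0.84, adjusted p 0.012 to 0.239 over all alternatives).

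Cytosolic heat shock chaperones fell in 5 of 20 cases and rose in 0, with a median of -0.31. HSPH1, an exchange factor of HSP70, had 208 and 178 CPM in the late libraries, against 353 and 338 CPM in the early ones (log2 -0.84 ± 0.16, adjusted p = 0.00288). The HSP40 gene DNAJA1 had 246 and 279 CPM late, against 426 and 385 CPM early (log2 -0.63 ± 0.15, adjusted p = 0.014). The inducible HSP70 gene HSPA1A had 22.6 and 27.4 CPM late, against 52.2 and 35.7 CPM early (log2 -0.81 ± 0.23, adjusted p = 0.0276). HSPA1A has a near-identical copy, HSPA1B, and how the counting divided them is not given. The constitutive HSPA8 had 883 and 1083 CPM late, against 1444 and 1285 CPM early (log2 -0.47 ± 0.15, adjusted p = 0.0461). The call was lost for DNAJA1 with the 600 min library left out (log2 -0.73 to -0.47, adjusted p 0.00109 to 0.0504 over all alternatives), HSPA1A with the 60 or 600 min library left out (log2 -1.07 to -0.55, adjusted p 0.00177 to 0.174) and HSPA8 with DESeq2, on UMI counts, without robust estimation or with the 60, 120 or 600 min library left out (log2 -0.69 to -0.20, adjusted p 0.00879 to 0.268).

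Sterol synthesis and uptake genes, driven by SREBP factors, fell in 8 of 21 cases and rose in 0, with a median of -0.67. INSIG1, the sterol-sensing retention protein, had 7.89 and 5.55 CPM in the late libraries, against 30.5 and 24.6 CPM in the early ones (log2 -2.02 ± 0.26, adjusted p = 0.000169). STARD4, a sterol carrier, had 18.4 and 17.7 CPM late, against 39.1 and 47.8 CPM early (log2 -1.27 ± 0.21, adjusted p = 0.00123). In both genes the late libraries were also under the unlit levels of 29.9 and 31.9 CPM. Of 10 fatty acid genes, with a median of -0.21, 1 rose and 1 fell. The desaturase gene FADS2 had 4.23 and 6.48 CPM late, against 2.37 and 2.04 CPM early (log2 1.27 ± 0.37, adjusted p = 0.0333). SCD, another desaturase, had 95.9 and 90.3 CPM late, against 144 and 135 CPM early (log2 -0.59 ± 0.17, adjusted p = 0.0289). Among the 15 alternatives the call ended for FADS2 with DESeq2, after thinning or with the 120 or 720 min library left out (log2 0.93 to 1.56, adjusted p 0.0115 to 0.298 over the 14 alternatives that tested it) and SCD with the 60, 120 or 720 min library left out (log2 -0.67 to -0.53, adjusted p 0.00988 to 0.139).

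DNA replication genes fell in 12 of 28 cases and rose in 0, with a median of -0.53. MCM3, a subunit of the replicative helicase, had 67.6 and 63.1 CPM in the late libraries, against 146 and 149 CPM in the early ones (log2 -1.18 ± 0.17, adjusted p = 0.000425). CCNE2, a G1/S cyclin, had 26.5 and 22.3 CPM late, against 63.2 and 52.9 CPM early (log2 -1.25 ± 0.20, adjusted p = 0.00108). RRM2, of deoxynucleotide synthesis, had 239 and 196 CPM late, against 379.6 and 413 CPM early (log2 -0.86 ± 0.16, adjusted p = 0.00266). In these 3 genes both late libraries lay below the unlit levels of 151, 53.9 and 303 CPM. MCM4, another helicase subunit, had 53.6 and 54.1 CPM late, against 116 and 79.9 CPM early (log2 -0.86 ± 0.20, adjusted p = 0.0107). Of the 28 differences 26 were below 0. The threshold was missed for MCM4 with the 60 min library left out (log2 -1.11 to -0.60, adjusted p 0.000132 to 0.0734 over all alternatives).

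The MCM3 promoter is shown for its E2F site, a motif common among S-phase genes. It is the stretch chr6:52284743-52284992 (minus strand, GRCh38.p14, from RefSeq), with the site in capitals 174 to 167 bases before the start.
MCM3: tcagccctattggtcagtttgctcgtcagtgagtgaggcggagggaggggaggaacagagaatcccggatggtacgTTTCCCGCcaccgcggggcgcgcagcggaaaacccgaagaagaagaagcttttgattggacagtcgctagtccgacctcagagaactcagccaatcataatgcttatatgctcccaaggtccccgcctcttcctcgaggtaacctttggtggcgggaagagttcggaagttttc

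The letters searched were TTTCCCGC, TTTCGCGC, TTTGCCGC and TTTGGCGC on both strands. They were found in 928 of 27195 genes with a promoter (3.41%), in 598 of 10499 tested genes (5.70%), in 66 of 875 genes lower late (7.54%) and in 37 of 819 higher late (4.52%). Of the replication genes 12 of 24 had a match. Among these CDT1, GINS2, MCM3, MCM7 and UHRF1 fell, and the others had no call.

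Genes of mitosis fell in 5 of 25 cases and rose in 0, with a median of -0.25. The kinesin gene KIF20A had 55.6 and 58.7 CPM late, against 114 and 113 CPM early (log2 -0.99 ± 0.17, adjusted p = 0.00172). BUB1, a checkpoint kinase, had 76.6 and 65.5 CPM late, against 116 and 106 CPM early (log2 -0.65 ± 0.18, adjusted p = 0.0242). CDK1, the mitotic kinase, had 189 and 188 CPM late, against 286 and 260.5 CPM early (log2 -0.54 ± 0.16, adjusted p = 0.0301). The times within each pair were close in all 3. NUSAP1, of the spindle, had 122 and 118 CPM late, against 183 and 169 CPM early (log2 -0.55 ± 0.16, adjusted p = 0.0343). An alternative ended the call for BUB1 with the 60 or 720 min library left out (log2 -0.79 to -0.55, adjusted p 0.00552 to 0.16 over all alternatives), CDK1 with the 60, 600 or 720 min library left out (log2 -0.62 to -0.44, adjusted p 0.00938 to 0.108) and NUSAP1 with the 60, 120, 600 or 720 min library left out (log2 -0.65 to -0.48, adjusted p 0.013 to 0.14).

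Of 17 targets of the antioxidant factor NRF2, 4 rose and 0 fell, with a median of 0.31. SRXN1, sulfiredoxin, had 561 and 588 CPM in the late libraries, against 254 and 171 CPM in the early ones (log2 1.44 ± 0.18, adjusted p = 0.000199). GCLM, the modifier subunit of the enzyme that starts glutathione synthesis, had 221 and 218 CPM late, against 101 and 96.3 CPM early (log2 1.15 ± 0.16, adjusted p = 0.000357). GCLC, its catalytic subunit, had 186 and 147 CPM late, against 110.5 and 102 CPM early (log2 0.65 ± 0.18, adjusted p = 0.0236). The growth inhibitor gene OSGIN1 had 89.4 and 140.3 CPM late, against 57.3 and 38.6 CPM early (log2 1.26 ± 0.25, adjusted p = 0.00569), with wider gaps inside its pairs. HMOX1, haem oxygenase, named after its values were seen, was far apart within each pair, at 55.0 and 114 CPM late, against 28.7 and 9.30 CPM early (log2 2.16 ± 0.70, adjusted p = 0.137). No call was made for GCLC with the 120 or 600 min library left out (log2 0.48 to 0.80, adjusted p 0.00593 to 0.119 over all alternatives). HMOX1 passed the threshold with limma-voom, without robust estimation or with the 60, 120 or 600 min library left out (log2 1.54 to 3.15, adjusted p 3.94e-21 to 0.442 over all alternatives). The fitted fold rested in part on 1 library, changing over 1.5 times, for HMOX1 (log2 3.15 leaving out 60 min, 1.55 leaving out 120 min, 1.54 leaving out 720 min).

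Of 15 autophagy genes 4 rose and 0 fell, with a median of 0.43. MAP1LC3B, the autophagosome protein LC3B, had 682 and 692 CPM in the late libraries, against 259 and 252 CPM in the early ones (log2 1.43 ± 0.15, adjusted p = 2.65e-05). Its relative GABARAPL1 had 171 and 180.5 CPM late, against 98.6 and 76.7 CPM early (log2 1.00 ± 0.18, adjusted p = 0.00193). OPTN, a cargo receptor, had 65.4 and 65.7 CPM late, against 27.2 and 27.4 CPM early (log2 1.26 ± 0.19, adjusted p = 0.000548). For LC3B and OPTN the 2 libraries of each pair were nearly equal. WIPI1, which binds the growing membrane, had 152 and 179 CPM late, against 86.0 and 77.8 CPM early (log2 1.02 ± 0.17, adjusted p = 0.00147).

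Apoptosis genes rose in 2 and fell in 1 of 11 tested members, with a median of 0.30. TNFRSF10B, the TRAIL receptor DR5 and a CHOP target, had 243 and 209 CPM in the late libraries, against 92.8 and 104 CPM in the early ones (log2 1.20 ± 0.17, adjusted p = 0.000358). The survival gene BCL2L1 had 157 and 163 CPM late, against 98.2 and 106 CPM early (log2 0.65 ± 0.17, adjusted p = 0.017). BMF, a BH3-only protein, had 19 counts over the late pair and 74 over the early pair (log2 -2.08 ± 0.46, adjusted p = 0.00734). Of 16 p53 targets, with a median of 0.21, 1 rose and 1 fell. CDKN1A, the cell cycle inhibitor p21, had 359 and 391 CPM in the late libraries, against 184 and 148 CPM in the early ones (log2 1.17 ± 0.17, adjusted p = 0.000348). The cyclin gene CCNG1 had 133 and 86.3 CPM late, against 180.4 and 184 CPM early (log2 -0.73 ± 0.20, adjusted p = 0.0254). Leaving out 1 library moved the fitted fold by more than 1.5 times for BMF (log2 -3.17 leaving out 600 min). Support for the call failed for BCL2L1 with the 60 or 720 min library left out (log2 0.56 to 0.73, adjusted p 0.00646 to 0.0892 over all alternatives), BMF with the 720 min library left out (log2 -3.17 to -1.52, adjusted p 3.68e-05 to 0.075 over the 14 alternatives that tested it) and CCNG1 with the 720 min library left out (log2 -1.07 to -0.46, adjusted p 9.94e-05 to 0.215).

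Lists of basic cell functions can be read against the 8.15% higher and 8.08% lower of all tested genes. Of 26 proteasome genes 0 rose and 0 fell, with a median of 0.10, and PSMA3, the member with the most counts, had 501 and 593 CPM late, against 580.1 and 444 CPM early (log2 0.10 ± 0.17, adjusted p = 0.735). Of 26 respiratory chain genes 4 rose (15.4%) and 0 fell, with a median of 0.21. Against the unlit library the medians of this list were -0.30 and -0.34 at 60 and 120 min. They were -0.13 and -0.08 at 600 and 720 min, so the late pair was not above the start. The genes that rose can be named. The 4 that rose were the complex I genes NDUFV1 (log2 0.81 ± 0.20, adjusted p = 0.013) and NDUFB8 (log2 0.57 ± 0.17, adjusted p = 0.0354) and the complex IV genes COX5B (log2 0.61 ± 0.17, adjusted p = 0.0226) and COX5A (log2 0.48 ± 0.15, adjusted p = 0.0409). The call did not hold in every alternative for any of these 4. The call was lost for NDUFV1 with the 120 or 720 min library left out (log2 0.60 to 1.02, adjusted p 0.000824 to 0.104 over all alternatives), NDUFB8 under total-count scaling or with the 60, 120 or 720 min library left out (log2 0.42 to 0.70, adjusted p 0.011 to 0.267) and COX5B with the 60 or 720 min library left out (log2 0.45 to 0.76, adjusted p 0.00343 to 0.2). Among the 15 alternatives the call ended for COX5A under total-count scaling, on UMI counts or with the 60, 120, 600 or 720 min library left out (log2 0.34 to 0.62, adjusted p 0.0281 to 0.183 over all alternatives).

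Ribosome biogenesis had 2 increases among 24 genes (8.33%), NOP16 (log2 0.67 ± 0.17, adjusted p = 0.0157) and RRP9 (log2 0.75 ± 0.21, adjusted p = 0.0242), with a median of 0.18. The unlit level of RRP9, 41.7 CPM, fell between its late ones of 40.5 and 51.6 CPM. That of NOP16, 98.0 CPM, was below its late ones. Glycolysis had 1 among 20, the hexokinase gene HK2 (log2 0.95 ± 0.27, adjusted p = 0.0279), with a median of 0.03 (-0.06 with the 720 min library left out). ALDOC reached the count filter through the late pair alone, and without it 1 of 19 rose, with a median of 0.02. Of 18 tested extracellular matrix genes 2 fell (11.1%) and 0 rose, with a median of -0.25. The fibrillar collagen gene COL3A1 had 126 and 87.9 CPM late, against 283 and 263 CPM early (log2 -1.35 ± 0.19, adjusted p = 0.000332). COL6A1, of the microfibrils, had 54.5 and 44.4 CPM late, against 76.5 and 86.2 CPM early (log2 -0.72 ± 0.19, adjusted p = 0.0196). The threshold was missed for NOP16 with the 120 or 720 min library left out (log2 0.57 to 0.77, adjusted p 0.00493 to 0.11 over all alternatives), RRP9 with the 120 or 720 min library left out (log2 0.56 to 0.93, adjusted p 0.00629 to 0.233) and HK2 with the 60 or 720 min library left out (log2 0.55 to 1.46, adjusted p 0.000217 to 0.194). An alternative ended the call for COL6A1 with the 120 or 720 min library left out (log2 -0.87 to -0.59, adjusted p 0.00262 to 0.151 over all alternatives).

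**Figure D5:**
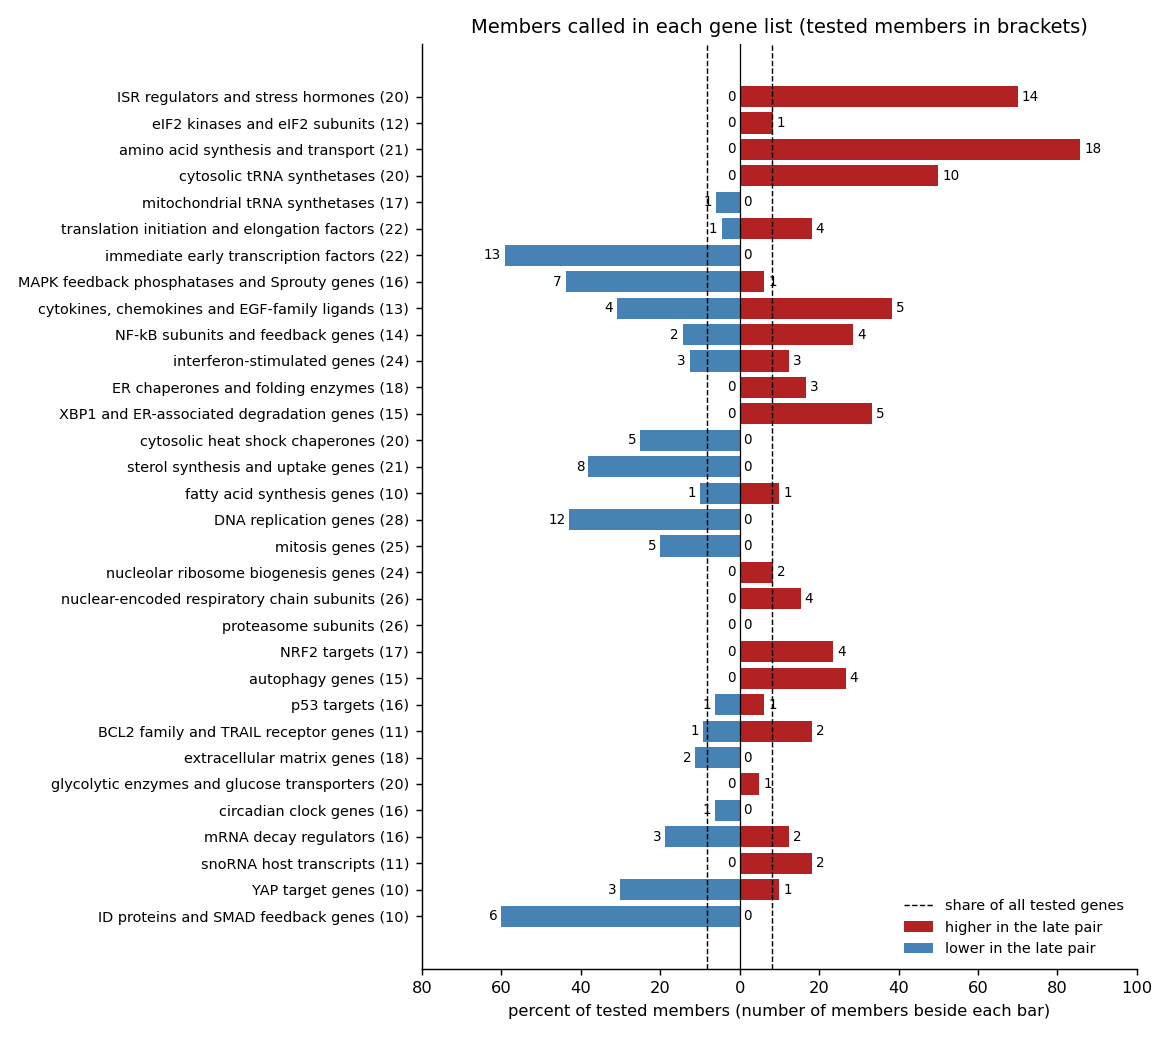
Percent of tested members called higher (red, right) and lower (blue, left) in the late pair for 32 gene lists, with the number called beside each bar, the number tested in brackets and dashed lines at the shares of all tested genes (8.15% higher, 8.08% lower). Amino acid supply and ISR regulators reach farthest right and the ID and SMAD feedback and immediate early lists farthest left.

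Markers of cell types were examined beside these changes. Of 14 epithelial and cornified envelope markers 5 had enough counts to be tested, and ESRP1 and SPRR2D are given above. SPRR2A had 12 and 31 counts late, against 0 and 0 early, so it reached the count filter through the late pair alone. Its ratio had a 95% exact lower limit of 10.3 (counting error only). The keratin gene KRT18 had 173 and 184 CPM late, against 105 and 116 CPM early (log2 0.69 ± 0.17, adjusted p = 0.0118). KRT8, its partner, named after its value was seen, had 22.3 and 21.3 CPM late, against 13.8 and 10.7 CPM early (log2 0.83 ± 0.24, adjusted p = 0.0277). Among the untested markers, CDH1, EPCAM, KRT5, KRT14, IVL, SPRR1A and SPRR1B had 0 to 2 counts in each of the 4 libraries. KRT19 had 1 and 1 counts late, against 5 and 5 early, and SPRR3 had 1 and 6 late, against 0 and 2 early. Reads of similar SPRR2 genes may have been shared in the counting. No call was made for KRT18 with the 60 or 720 min library left out (log2 0.59 to 0.76, adjusted p 0.00258 to 0.0699 over all alternatives) and KRT8 with DESeq2 or with the 120, 600 or 720 min library left out (log2 0.66 to 0.99, adjusted p 0.0123 to 0.187).

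Of 10 glial and mesenchymal markers 6 were tested, of which 3 fell and 0 rose, with a median of -0.64. PDGFRA, a growth factor receptor, had 20.8 and 13.0 CPM late, against 60.6 and 68.7 CPM early (log2 -1.93 ± 0.24, adjusted p = 0.000121). SOX2, a progenitor factor, had 15.9 and 27.4 CPM late, against 43.5 and 54.3 CPM early (log2 -1.18 ± 0.26, adjusted p = 0.00762). SOX9, a glial lineage factor, had 47.1 and 50.2 CPM late, against 96.1 and 78.7 CPM early (log2 -0.84 ± 0.19, adjusted p = 0.00738). In all 3 both late libraries were below both early ones, as in 29.1% of all tested genes. The unlit level of SOX9, 44.1 CPM, was below all 4 libraries. Those of PDGFRA and SOX2, 65.8 and 35.8 CPM, were above their late ones.

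Of 9 neuron markers 4 were tested, with 2 higher and 2 lower. MAP2, a microtubule protein of dendrites, had 50.9 and 65.1 CPM in the late libraries, against 5.29 and 5.73 CPM in the early ones (log2 3.39 ± 0.25, adjusted p = 1.21e-06). SYT1, a synaptic vesicle protein, had 89.3 and 84.0 CPM late, against 53.1 and 62.0 CPM early (log2 0.59 ± 0.18, adjusted p = 0.0388). TUBB3, a neuronal tubulin, had 197 and 242 CPM late, against 317 and 311 CPM early (log2 -0.51 ± 0.16, adjusted p = 0.0429). These markers thus moved in both directions. SNAP25, of vesicle release, had 16 counts over the late pair and 68 over the early pair (log2 -2.21 ± 0.49, adjusted p = 0.00787). Among the untested markers, STMN2, NEFL and NEFM had 0 or 1 count in each of the 4 libraries. RBFOX3 had 1 and 5 counts late, against 1 and 5 early, and SYP had 12 and 9 late, against 2 and 6 early. The fitted fold rested in part on 1 library, changing over 1.5 times, for SNAP25 (log2 -3.46 leaving out 600 min, -1.61 leaving out 720 min). The value leaving out 600 min rested on 3 late counts. Support for the call failed for SYT1 under total-count scaling or with the 60, 120, 600 or 720 min library left out (log2 0.45 to 0.70, adjusted p 0.0285 to 0.221 over all alternatives), TUBB3 with the 60, 120 or 600 min library left out (log2 -0.68 to -0.37, adjusted p 0.0119 to 0.216) and SNAP25 with the 720 min library left out (log2 -3.46 to -1.61, adjusted p 2.71e-05 to 0.0709 over the 14 alternatives that tested it).

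Of 10 immune markers 2 had enough counts to be tested. The integrin gene ITGAM had 48 and 14 counts late, against 7 and 8 early (log2 1.88 ± 0.55, adjusted p = 0.0331), so its late libraries differed widely and it reached the filter through the late pair alone. The lysozyme gene LYZ had 22 and 50 counts late, against 11 and 11 early (log2 1.61 ± 0.49, adjusted p = 0.0401). CD3E and MS4A1 had 0 counts throughout and PTPRC 0 to 2. Of 7 endothelial markers 1 was tested, ESAM (log2 0.57 ± 0.22, adjusted p = 0.0893). Of the untested ones CDH5 and CLDN5 had 0 counts, and the others had no more than 8 in any of the 4 libraries. Leaving out 1 library moved the fitted fold by more than 1.5 times for LYZ (log2 0.76 leaving out 720 min). The call was lost for ITGAM with DESeq2 or with limma-voom (log2 1.65 to 2.18, adjusted p 0.0012 to 0.115 over the 12 alternatives that tested it) and LYZ with DESeq2, with limma-voom or with the 720 min library left out (log2 0.76 to 2.17, adjusted p 0.000373 to 0.502 over the 14 alternatives that tested it). Whether cells of other types had a part in the differences above was not tested.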

How the data were processed

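The authors deposited tables of expected counts per gene (not all whole numbers), for reads, UMIs and collision-corrected transcripts, with 1 column per barcode. BWA and the build hg19 are named in the submitters' processing notes. For the counting program and annotation nothing is stated in the sources. The column headed 4, the primer the labels name, was used; 1995 other columns were not used. ERCC spike-in rows (0.0260% to 0.0305% of transcripts in the 4 libraries) were dropped and transcript counts rounded. Genes with at least 10 counts in 2 libraries were fitted with edgeR 4.0.16 in R 4.3.3 (TMM, robust quasi-likelihood F test, 2 residual and a median of 12.11 prior degrees of freedom, Benjamini-Hochberg threshold 0.05). The SE is the log2 difference divided by the root of F. Alternatives used limma 3.58.1, DESeq2 1.42.0 and other scalings, filters and counts. The 480 min table ends at NME1-NME2, and later genes have no value there. The fit was tested on simulated data.

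The genes named are, by rule, the 12 largest changes each way among called genes with a mean of 50 counts, up to 4 called members per list by p (or the most abundant member), and 15 core genes; a few of these are not reported here. The comparison, the members and the 37 gene lists were chosen with earlier results of these data known. Promoters are from a RefSeq table of GRCh38.p14; as the files use hg19, no coordinates come from them. How reads matching several genes were counted is not given, so genes with near-identical copies are uncertain. Where a ratio of few counts is given with a 95% exact binomial interval or limit, it covers counting error only. No stated replicate exists, so technical and biological noise within a pair cannot be told apart from change between its times.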

Additional observations from a re-analysis of the deposited data

How the results depend on the processing

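The count of called genes ran from 1746 (DESeq2) to 2915 (no count filter) over the settings that kept all 4 libraries. Leaving out 1 library gave 994 to 2340 calls, 523 to 1188 of them higher and 471 to 1202 lower; the lowest values, 994, 523 and 471, came without the 720 min library, the other library then standing alone and being assumed to vary like the early pair. Total-count scaling gave 37.9% of calls higher, against 50.2% under TMM, and moved the median of all genes by -0.08. Of 137 named and called genes 93 kept their call in all 15 alternatives and 0 named genes reversed a called direction. Of 369 list medians recomputed, 70 moved by more than 1 SD. No paired analysis was possible because the labels give no replicate numbers and the 4 libraries are 4 times. Low counts limit the ratios of genes near 0, and genes over 3800 UMIs are imprecise.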

Other observations

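Gene families defined by symbol were chosen after the data were seen. Of 216 tested ZNF zinc finger genes on chromosome 19, 62 (28.7%) were lower late and 2 (0.926%) higher, with a median difference of -0.47 in log2, and of 228 ZNF genes on other chromosomes 42 (18.4%) were lower and 4 (1.75%) higher, with a median of -0.36. Over all tested genes the shares were 8.08% lower and 8.15% higher, with a median of 0.01. ZNF180, for example, had 13.7 and 9.79 CPM in the late libraries, against 40.7 and 43.4 CPM in the early ones (log2 -1.83 ± 0.23, adjusted p = 0.000153, edgeR), and 25.6 CPM unlit. Many of these genes resemble each other, and how shared reads were counted is not given. Of 82 cytosolic ribosomal protein genes 6 (7.32%) were higher and 0 lower, with a median of 0.28. Of 78 mitochondrial ones 5 (6.41%) were higher and 0 lower, with a median of 0.21. Both shares of higher genes lay below the 8.15% of all tested genes.

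Single genes outside the lists also stood apart and were chosen after their values were seen. The neuropeptide gene TAC1 had 217 and 256 CPM in the late libraries, against 20.5 and 25.1 CPM in the early ones (log2 3.37 ± 0.20, adjusted p = 5.63e-07, edgeR). PCK2, the mitochondrial enzyme that makes phosphoenolpyruvate, had 153 and 147 CPM late, against 27.9 and 37.6 CPM early (log2 2.20 ± 0.20, adjusted p = 8.08e-06, edgeR), and ASS1, of arginine synthesis, had 82.5 and 127 CPM late, against 14.9 and 13.4 CPM early (log2 2.89 ± 0.24, adjusted p = 4.5e-06, edgeR). The keratin genes KRT17, with 115 and 129 CPM late, against 14.2 and 20.5 CPM early (log2 2.81 ± 0.22, adjusted p = 2.15e-06, edgeR), and KRT81, with 73.6 and 94.8 CPM late, against 16.7 and 19.0 CPM early (log2 2.24 ± 0.21, adjusted p = 1.31e-05, edgeR), were higher late as well. Among falling genes SNAI1, a repressor of epithelial genes, had 24.0 and 21.3 CPM late, against 158 and 147 CPM early (log2 -2.75 ± 0.19, adjusted p = 9.72e-07, edgeR), EDN1, the peptide endothelin, had 19.9 and 16.8 CPM late, against 108 and 139 CPM early (log2 -2.75 ± 0.21, adjusted p = 1.96e-06, edgeR), and HES1, a Notch target, had 43.1 and 61.5 CPM late, against 215 and 217 CPM early (log2 -2.05 ± 0.20, adjusted p = 1.44e-05, edgeR). IGFBP3, which binds insulin-like growth factors, had 122 and 103 CPM late, against 508 and 441 CPM early (log2 -2.08 ± 0.17, adjusted p = 3.07e-06, edgeR) with 540.3 CPM unlit, so it had fallen below its start, whereas EDN1 and HES1 came back towards unlit levels of 14.2 and 62.8 CPM.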
